A study of Mus musculus with 2 samples.

Results

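A set of 1525 DNase I hypersensitive peaks of mouse gastrocnemius was called in replicate 2 where replicate 1 had no accessible interval at all. They were chosen by position in the peak list of replicate 2: each lay more than 1 kb from every transcription start site (TSS) of a protein-coding gene, and shared no base with an interval of replicate 1 at a false discovery rate (FDR) of up to 0.05. The set made up 16.1% of the 9489 distal peaks of replicate 2 (Wilson 95% interval 15.3% to 16.8%) and is compared below with the other 7964 distal peaks of the same library. With promoter peaks counted in, 1945 of all 26804 peaks of replicate 2 (7.26%) overlapped no replicate 1 interval, and of the 17315 promoter peaks alone 420 (2.43%) did not. Both libraries entered this choice, so that the lack of signal in replicate 1 is a selection and not a result. The height of replicate 1 at these positions was not analysed here. No test was run, because regions are not replicates and the labels give a single group of 2 libraries. The values below are descriptions, and the intervals on shares and medians cover counting error only.

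DNase I cuts DNA where nucleosomes are absent or displaced, so that promoters, enhancers and insulators appear as short hypersensitive stretches. Within such a stretch, a bound protein can shield its own few bases from the enzyme, which leaves a footprint. Distal hypersensitive sites hold most tissue-restricted enhancers, and in skeletal muscle many carry sites for myogenic basic helix-loop-helix factors and MEF2 proteins. The gastrocnemius is the large calf muscle of the hindlimb and holds, besides mostly fast muscle fibres, satellite cells, fibroblasts, vessels, nerve and tendon.

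Both libraries came from female B6CASTF1/J mice aged 10 days, which by the strain's name are F1 hybrids of C57BL/6J and CAST/EiJ. Per the labels each library pooled muscle of 3 females, so a library stands for a pool and no cell type was sorted. No treatment or transgene is named. Replicate 1 was the richer library in every deposited list, with 114758 peaks against 26804, 56.6 Mb of intervals against 16.7 Mb, and 468215 footprints against 115528. Of its peaks 74.0% were distal, against 35.4% in replicate 2. The smallest step between peak heights was 0.00597 in replicate 1 and 0.0107 in replicate 2; the read depth itself is not given. Of 6 muscle marker genes, promoter peaks were found at Ckm and Actn3 in both libraries, at Acta1 in replicate 2 alone, at Ryr1 and Myod1 in replicate 1 alone, and at Atp2a1 in neither. Markers of fibro-adipogenic cells (Pdgfra and Col1a1) had promoter peaks in both, while Pecam1 and Cdh5 of endothelium, Csf1r and Cd68 of macrophages, and Krt5, Krt14 and Trp63 of keratinocytes had none in either. Kdr, another endothelial gene, had a promoter peak in both.

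The sequences of 8 of the 1525 peaks are given here, as the GRCm38 (mm10) reference has them, which is the C57BL/6J sequence and not the CAST/EiJ allele. The first 4 are among the tallest peaks of at most 300 bp, and the other 4 are the tallest of at most 300 bp near the Hoxa, sarcomere, fast fibre and immediate-early genes. Capitals mark bases inside footprints of replicate 2.
Swsap1 (chr9:21950421-21950580, plus strand): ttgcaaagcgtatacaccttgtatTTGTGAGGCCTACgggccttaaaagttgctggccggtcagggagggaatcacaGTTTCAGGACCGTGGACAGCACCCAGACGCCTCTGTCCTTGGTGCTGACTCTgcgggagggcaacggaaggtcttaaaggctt
Camta1 (chr4:151604581-151604800, plus strand): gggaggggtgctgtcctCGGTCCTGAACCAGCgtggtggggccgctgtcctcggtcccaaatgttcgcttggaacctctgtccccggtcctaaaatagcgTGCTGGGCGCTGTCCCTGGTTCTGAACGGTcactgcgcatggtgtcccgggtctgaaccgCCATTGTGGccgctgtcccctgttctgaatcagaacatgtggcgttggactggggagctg
Hspg2 (chr4:137476767-137476887, plus strand): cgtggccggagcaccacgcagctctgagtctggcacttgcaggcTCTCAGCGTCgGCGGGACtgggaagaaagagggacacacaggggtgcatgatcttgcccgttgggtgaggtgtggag
Vac14 (chr8:110630541-110630760, plus strand): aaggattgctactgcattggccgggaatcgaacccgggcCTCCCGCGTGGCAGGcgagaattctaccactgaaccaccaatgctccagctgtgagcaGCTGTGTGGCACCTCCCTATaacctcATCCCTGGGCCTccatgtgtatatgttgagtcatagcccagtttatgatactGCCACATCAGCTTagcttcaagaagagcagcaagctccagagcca
Hoxa13 (chr6:52254301-52254410, plus strand): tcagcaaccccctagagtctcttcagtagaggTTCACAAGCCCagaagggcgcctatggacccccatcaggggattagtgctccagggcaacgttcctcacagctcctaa
Des (chr1:75344989-75345069, plus strand): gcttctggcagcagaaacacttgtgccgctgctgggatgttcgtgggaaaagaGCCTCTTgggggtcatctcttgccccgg
Pvalb (chr15:78198741-78198940, plus strand): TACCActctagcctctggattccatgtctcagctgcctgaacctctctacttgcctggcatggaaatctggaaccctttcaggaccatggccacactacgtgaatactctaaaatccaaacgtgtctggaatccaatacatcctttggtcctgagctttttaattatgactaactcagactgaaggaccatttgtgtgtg
Zfp36 (chr7:28381861-28381894, plus strand): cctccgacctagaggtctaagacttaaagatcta
The Swsap1 peak stood 5175 bp upstream of the TSS of Swsap1, a gene of homologous recombination, in intergenic sequence, and 65 of its 160 bases lay in 2 footprints. The Camta1 peak lay in an intron of Camta1, a calmodulin-binding transcription activator, 256850 bp from the TSS, and its second footprint holds GCTGTCCCTGGTTCTGAACGGT. On the opposite strand, that stretch holds the same kind of letters as the second footprint of the Swsap1 peak, TTTCAGGACCGTGGACAGCACC, to which the account returns below. The Hspg2 peak was in an intron of the gene for perlecan, a basement membrane proteoglycan, 7964 bp from the TSS. Its gap to an interval of replicate 1 was only 13 bp. The Vac14 peak, in an intron of Vac14 (a scaffold of the lipid kinase PIKfyve), covers a RefSeq glycine tRNA gene at chr8:110630553-110630623. An interval of replicate 1 lay only 28 bp from that peak. The Zfp36 peak is 34 bp wide and has no footprint, as its lower-case letters show.

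Peaks called only in replicate 2 were low, and narrower at the median but more often wide. Their median height was 0.418 (95% interval 0.397 to 0.450; quartiles 0.289 and 0.804), against 1.35 (1.33 to 1.37) for the other distal peaks. In units of the library's smallest height step these medians are 39.0 and 126. The lowest peak had a height of 0.118 and the highest, in an intron of Morn1, 3.01, while the other distal peaks reached 89.6. A height of 1 was met by 220 of the 1525 (14.4%) and by 5957 of the 7964 others (74.8%). The median width was 138 bp (129 to 145), with a range from 23 to 1151 bp, against 170 bp (163 to 173). The upper quartile of width was 240 bp against 220 bp, and 17.4% against 13.3% were at least 300 bp wide. Together the 1525 peaks covered 275 kb of the genome.

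**Figure D1:**
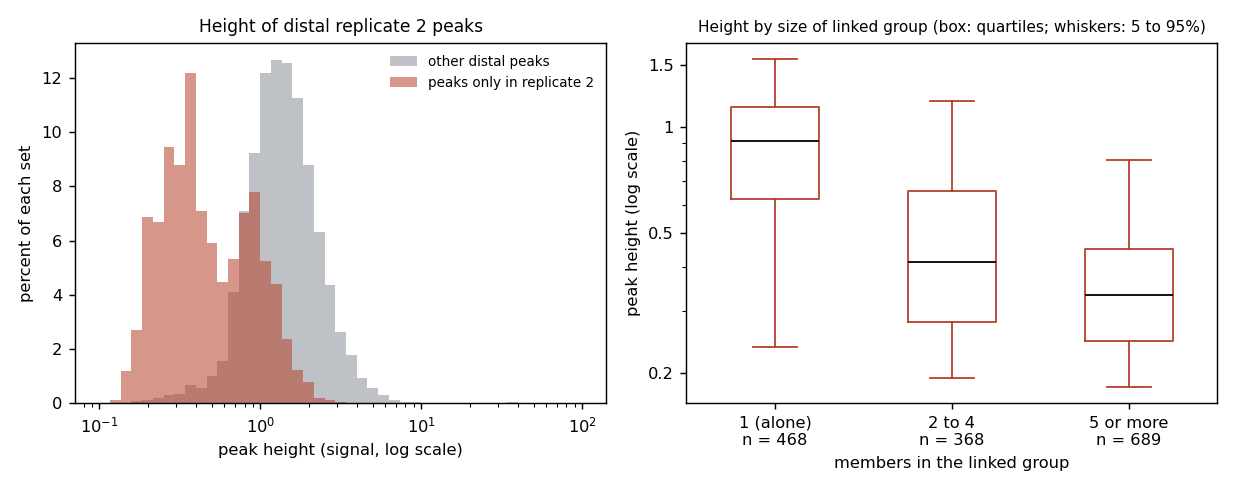
Left, peak height (replicate 2's signal, log axis) of the 1525 peaks called only in replicate 2 and of the 7964 other distal peaks of that library, as percent of each set. Right, height of the 1525 peaks by the size of the group they belong to (only peaks of the set are linked, within 10 kb). Boxes span the quartiles and the line is the median, which is 0.911 for peaks alone and 0.332 in groups of at least 5.

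The share of distal peaks that replicate 1 lacked differed with height. Of the distal peaks of replicate 2 under a height of 0.3, 88.0% were missing from the intervals of replicate 1, and between 0.3 and 0.6 the share was 67.7%. It was 16.5% between 0.6 and 1, 6.18% between 1 and 1.5, and 1.39% from 1.5 upward. The set thus holds most of the low distal peaks of replicate 2, and 47 peaks of at least 1.5. In replicate 1 itself, 8327 of 84881 distal peaks (9.81%) were no taller than 0.418, on that library's own scale. Low height did not mean a weak call in replicate 2 for the set as a whole. The best FDR of a base under the peak had a median of 6.74e-06 in the set and 3.77e-06 in the other distal peaks. No peak of the set exceeded 0.000905, but this FDR differed between isolated and grouped peaks, as given below.

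Many of the peaks lay close to accessible sequence of replicate 1. An interval of replicate 1 began or ended within 200 bp of 183 peaks (12%) and within 1000 bp of 545 (35.7%). The median gap was 1808 bp, 193 peaks (12.7%) were over 10 kb away, and the largest gap was 499400 bp. Just inside the limits of the choice stood a peak near Ube2e3 that touched an interval without sharing a base (height 0.665), one near Ctdspl with a gap of 2 bp (1.08) and one near Bmp6 with a gap of 3 bp (0.901). Just outside stood peaks near Gm765, Fut10 and Acvrl1, of heights 0.675, 1.03 and 0.901, whose best replicate 1 FDR was 0.0494, 0.0493 and 0.0491. On distance, a peak 1010 bp from the TSS of Mxd4 (0.750) was in, and a peak 997 bp from that of Begain (0.461) was out. Of the other distal peaks, 94.6% had a replicate 1 FDR of at most 0.001, and 196 (2.46%) had one above 0.01, so few stood near that limit.

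The peaks fell into runs of low neighbours and isolated taller ones. Linking peaks of the set within 10 kb of each other, a distance chosen after the data were seen, gave 685 groups. Isolated here means linked to no other peak of the set. Such a peak can still lie near other peaks of replicate 2 or intervals of replicate 1. The isolated Hspg2 peak, for example, lay 13 bp from a replicate 1 interval. Peaks linked to no other numbered 468 (30.7%); their median height was 0.911, their median width 104 bp, and 62.8% held a footprint. The 75 groups of at least 5 peaks held 689 (45.2%), with a median height of 0.332, a median width of 193 bp and footprints in 38.8%. At the median the isolated peaks, although taller, were the weaker calls of replicate 2. The best FDR of a base under the peak had a median of 8.14e-05 in the 468 isolated peaks. It was 5.22e-06 in groups of 2 to 4 and 3.69e-07 in groups of at least 5, against 3.77e-06 in the other distal peaks. Over the spans of these 75 groups, a median of 61.2% of bases lay in intervals of replicate 2 and 2.98% in intervals of replicate 1. Replicate 1 had no interval in 27 of the spans and no peak in 35, and in none did its intervals cover more than those of replicate 2. In 67 of the 75 groups every peak of the set was under a height of 1.

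The largest run lay upstream of Sik1, which encodes salt-inducible kinase 1, a kinase that acts on CREB coactivators and class II histone deacetylases. It held 46 peaks over 44.0 kb of intergenic sequence (chr17:31864673-31908720), from 8869 to 52757 bp upstream of the TSS. Their heights ran from 0.150 to 0.783 with a median of 0.359, and 19 held a footprint. Intervals of replicate 2 covered 56.5% of the span and those of replicate 1 covered 1.68%. The Sik1 promoter itself had a peak in both libraries, and 5 other distal peaks of replicate 2, shared with replicate 1's intervals, had Sik1 as nearest gene.

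The next runs differed in what they lay on. The 26 peaks nearest to Scaf8, a protein that binds the tail of RNA polymerase II, stood 82592 to 108095 bp upstream of it at the start of the assembled part of chromosome 17 (chr17:3006768-3032380). The first of them is 6767 bp from the first assembled base, 51.9% of the span is repeat-masked, no interval of replicate 1 lay there, and only 3 of 26 held a footprint (heights 0.139 to 0.332). The 25 peaks near Smok2a, a sperm motility kinase gene, spanned chr17:13194567-13224420 at 0.204 to 0.761. With these 3 runs, 170 of the 593 distal peaks of replicate 2 on chromosome 17 (28.7%) belonged to the set. Without the 97 peaks of the 3 runs, the share was 73 of 496 (14.7%). Near the assembled start of chromosome 4, the pheromone receptor gene Vmn1r2 was nearest to 15 peaks of heights 0.279 to 0.675, in groups of 8 and 7. In all, 44 peaks of the set, and 73 distal peaks of replicate 2 of either kind, lay in the first 200 kb of the assembled sequence of a chromosome.

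Other runs lay inside genes. Rapgef1, which encodes an exchange factor of the GTPase Rap1, held 19 intronic peaks in 11.6 kb (chr2:29621101-29632660); replicate 2's intervals covered 84.3% of that span and replicate 1 had none. Glis1, a zinc finger transcription factor gene, held 19 peaks at 0.182 to 0.375. Tbc1d1, a Rab GTPase-activating protein in insulin- and contraction-stimulated glucose uptake of muscle, held 16 at 0.150 to 0.654. Ppm1h, a protein phosphatase gene, held 14 (0.161 to 0.740). Nlrc5, a transactivator of class I histocompatibility genes, held 11 (0.193 to 0.311), and Plcg1, which encodes a phospholipase C, also 11 (0.182 to 0.901). Each of these genes had their tallest peak below the median of the other distal peaks, 1.35.

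**Figure D2:**
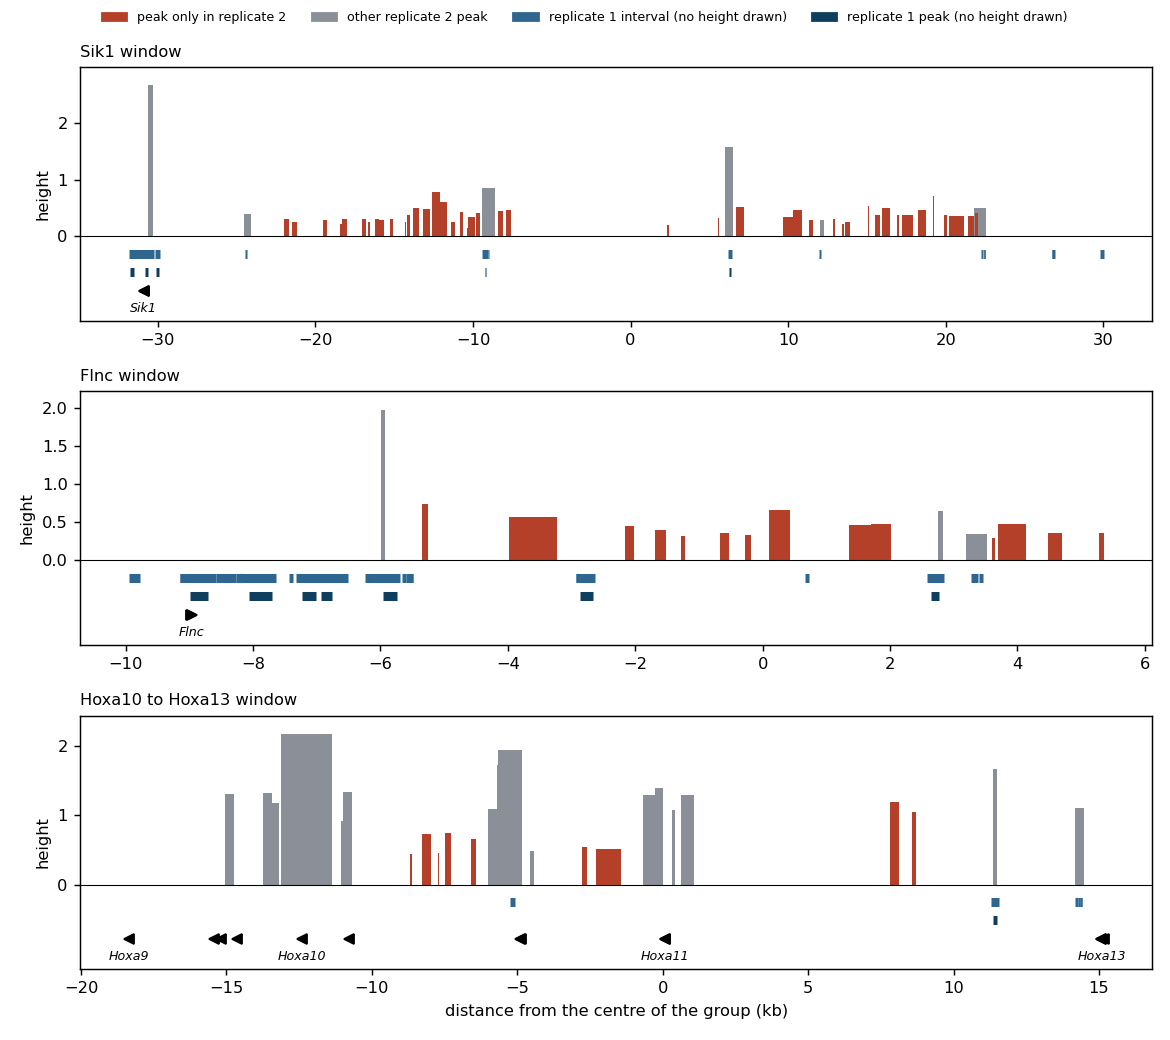
Heights of replicate 2 peaks (red, called only in replicate 2; grey, other peaks of that library) around 3 groups, by distance from the centre of the group in kb. Bars beneath mark where replicate 1 had intervals (upper) and peaks (lower), with no height, and arrows mark start sites of the named genes; in the Sik1 window 46 red peaks stand beside 5 replicate 1 peaks.

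By nearest TSS the 1525 peaks were assigned to 657 of 21924 protein-coding genes (3.00%), while any distal peak of replicate 2 was nearest to 23.3% of genes. Counting every gene with a TSS within 50 kb of a peak gave 1253 genes. One peak fell to 425 of the genes, 2 to 4 peaks to 155 and at least 5 to 77, and the 20 genes with the most held 327 peaks (21.4%). A promoter peak in replicate 2 stood at 457 of the 657 (69.6%) and in replicate 1 at 523 (79.6%). For the genes nearest to the other distal peaks these shares were 63.5% and 81.2%, and for all genes 51.4% and 66.7%. At 285 of the 657 genes the peaks of the set were the only distal peaks of replicate 2, and 22 had a promoter peak in replicate 2 but not in replicate 1. The nearest gene is an assignment by distance and does not show which gene a site acts on.

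Myogenic regulators near the peaks included factors of differentiation and growth. Mef2d, a MADS-box factor of muscle differentiation, had 5 intronic peaks at 0.418, 0.450, 0.482, 0.493 and 0.590, of which 4 held a footprint. Tead1, a factor of the Hippo pathway that binds muscle promoters, had 2 upstream at 0.665 and 0.718, and Eya4, a transcriptional coactivator and phosphatase, had 1 at 0.750.

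Of 15 satellite cell genes, 2 were nearest to a peak (13.3%, against 3.00% of all protein-coding genes). The other distal peaks were nearest to 9 of the 15, and to 4830 of all 21924 genes. Pax7, the paired-box factor that marks satellite cells, had 5 within 9109 bp downstream of a TSS, at 1.29, 1.01, 0.965, 0.954 and 0.879, and 4 held a footprint. The Pax7 promoter had a peak in replicate 2 and none in replicate 1. Spry1, an inhibitor of receptor tyrosine kinase signalling needed for satellite cell quiescence, had 1 coding-exon peak at 1.55, only 20 bp from an interval of replicate 1.

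Genes of the contractile apparatus carried mostly low peaks inside the gene body. Of 35 sarcomere genes, 5 were nearest to 20 peaks (14.3% of the genes, against 3.00% of all protein-coding genes). The other distal peaks were nearest to 7 of the 35. Flnc, which encodes the Z-disc protein filamin C, had 14 at heights of 0.30 to 0.740 over chr6:29436873-29447581, of which 6 lay on coding exons and 8 in introns. Intervals of replicate 2 covered 65.4% of that span and those of replicate 1 covered 6.14%. At its promoter Flnc had a peak in replicate 1 and none in replicate 2. A single peak was assigned to each of Des (desmin, 15260 bp upstream, 1.18), Synpo2 (an actin-bundling Z-disc protein, 57087 bp upstream, 1.05) and Tpm2 (beta-tropomyosin, 0.311). The Des peak lay 43 bp from an interval of replicate 1.

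Ttn, which encodes the giant elastic protein titin, held 16 peaks within its body, of which 15 lay on coding exons. Most were closer to the TSS of Plekha3, the neighbouring gene, than to that of Ttn. Their heights ran from 0.172 to 0.386 and 5 held a footprint. Of them, 13 formed a run over chr2:76739790-76758982, where replicate 1 had no interval and replicate 2's intervals covered 22.0%. Here too the gene had a promoter peak in replicate 1 and none in replicate 2. By gene body instead of nearest TSS, 33 peaks lay in 5 of the 35 sarcomere genes (Ttn, Flnc, Mybpc2, Synpo2 and Tpm2). Of all 21924 protein-coding genes, 367 held a peak of the set in the gene body.

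Peaks near metabolic, calcium and fibre type genes were mostly low, some inside the gene and some far from it. Pygm, the glycogen phosphorylase of muscle, had 6 peaks at 0.397 to 0.686, with footprints in 4 and a promoter peak in replicate 2 only. Pvalb, the calcium buffer of fast fibres, had 6 intronic peaks at 0.236, 0.332, 0.375, 0.440, 0.440 and 0.472, and 2 held a footprint; its promoter peak was in replicate 1 only. Bin1, which shapes the transverse tubules, had 8 intronic peaks at 0.311 to 0.836 with footprints in 2. Of the slow fibre list, Mb (myoglobin) had 3 intergenic peaks downstream at 0.504, 0.675 and 0.858, and Atp2a2, the slow calcium pump, had 1 intergenic peak at 1.02. Ppargc1a, a coactivator of mitochondrial genes, had 2 remote ones, 162284 and 512691 bp downstream, at 0.772 and 0.686. Of the developmental and synaptic genes, Chrng, the fetal acetylcholine receptor subunit, had 2 at 0.343 and 0.364, which lie in the neighbouring Chrnd, and Dlk1, an imprinted regulator of muscle growth, had 5 at 0.343 to 0.804 with a footprint in 1.

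**Figure D3:**
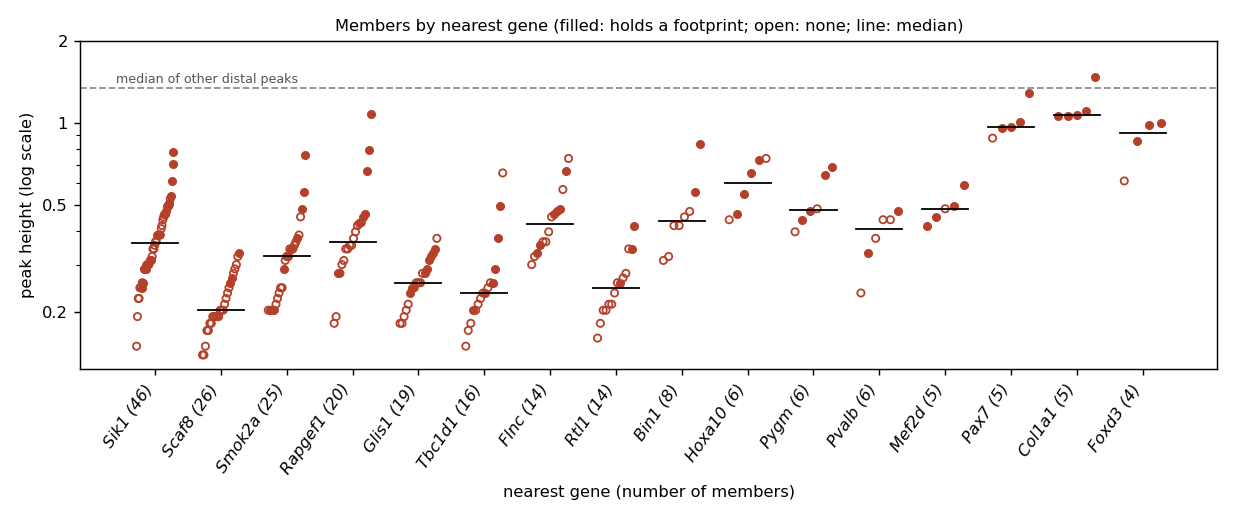
Height of each peak called only in replicate 2, by nearest gene, for 16 genes; filled points hold a footprint of replicate 2, open points do not, and the dashed line marks the median of the other distal peaks, 1.35. Points of Col1a1 lie at 1.06 to 1.48 and those of Pvalb at 0.236 to 0.472.

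Hox genes set position along the limb and body axis. Of 12 Hoxa genes, 5 were nearest to 13 peaks (41.7% of the genes, which are neighbours, against 3.00% of all protein-coding genes). The other distal peaks were nearest to 2 of the 12. Hoxa10 had 6 at 0.440 to 0.740, Hoxa9 had 2 at 0.654 each, Hoxa11 had 2 at 0.515 and 0.364, Hoxa13 had 2 at 1.19 and 1.05, and Hoxa7 had 1 at 0.729. Of the 13, 10 formed a run over chr6:52237027-52254410, where replicate 2 had 18 peaks and replicate 1 had 1 interval and 0 peaks; the intervals covered 51.9% and 0.846% of it. The promoters of Hoxa9, Hoxa10, Hoxa11 and Hoxa13 had a peak in replicate 2 and none in replicate 1. In the Hoxc cluster, Hoxc10 had 1 peak at 1.79 (401 bp, 5 footprints), Hoxc11 1 at 1.72 and Hoxc6 1 at 0.247. Hoxd10 had 1 at 0.858, and none of 10 Hoxb genes was nearest to any. With every gene that has a TSS within 50 kb counted instead, the numbers were 9 of 12 Hoxa, 9 of 9 Hoxc, 9 of 10 Hoxd and 0 of 10 Hoxb genes. That rule counted 1253 of all 21924 protein-coding genes. Clustered neighbours share peaks under it: Hoxc genes were nearest to only 3 peaks of the set and Hoxd genes to 1. Outside the clusters, Tbx18, a limb patterning T-box factor, had 2 at 0.665 and 0.557. It was the only 1 of 22 limb patterning genes nearest to a peak of the set (4.55%). The other distal peaks were nearest to 13 of the 22.

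Several peaks nearest to markers of cells other than fibres were tall for the set. The share of listed genes nearest to a peak was 20% for the endothelial and mural lists. It was 13.3% for neurons, 12.5% for fibro-adipogenic cells and 6.67% each for tenocytes, Schwann cells and macrophages, against 3.00% of all protein-coding genes. The other distal peaks were nearest to 5 of 15 endothelial, 5 of 15 mural, 7 of 15 neuron and 7 of 16 fibro-adipogenic genes. They were also nearest to 6 tenocyte, 4 Schwann and 7 macrophage genes of 15 each, and to 4830 of all 21924 genes. Col1a1, the fibroblast collagen gene, had 5 at 1.48, 1.10, 1.07, 1.06 and 1.06, all with a footprint. Col1a2 had 1 at 0.911, which lay 85394 bp upstream and only 37 bp from an interval of replicate 1. Of 16 fibro-adipogenic genes Col1a1 and Col1a2 were the only ones nearest to a peak of the set. Foxd3, a neural crest factor on the Schwann list, had 4 at 0.611 to 0.997, with footprints in 3 and a promoter peak in replicate 2 only. Scx, the tendon transcription factor, had 2 at 0.622 and 0.986. Of 15 endothelial genes listed, Pecam1 (1.17), Cdh5 (0.954) and Kdr (0.954) had 1 each. The Cdh5 peak was 78245 bp upstream. Those of Pecam1 and Kdr were 190 and 111 bp from an interval of replicate 1. The pericyte gene Cspg4 had 3 at 0.354 to 0.60. C1qa, a complement gene of macrophages, had 1 at 1.85, 25849 bp upstream, and of the neuron list Rbfox3 had 1 at 1.07 and Stmn2 1 at 0.579. No peak of the set was nearest to a gene of the lymphocyte, erythroid, adipocyte, cardiac, hepatocyte, keratinocyte or housekeeping lists. With 14 or 15 genes per list and a share of 3.00% among all genes, such a count of 0 says little about cell type. By TSS within 50 kb of a peak, 2 erythroid genes, 1 cardiac gene and 1 housekeeping gene were counted. In bulk tissue a larger number of cells with a site and more opening per cell cannot be told apart.

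Of 24 immediate-early genes, 5 were nearest to 1 peak each (20.8%, against 3.00% of all protein-coding genes). These genes were Zfp36, which encodes the RNA-destabilising protein tristetraprolin (1.31), Fos, an AP-1 subunit (1.20), Ier3 (1.08) and Egr3, a factor needed for muscle spindles (0.965), and, named after its value was seen, Klf4 (0.761). The peak assigned to Fos lay 58070 bp from its TSS. That assigned to Egr3 lay 56118 bp away, in an intron of Pebp4. The Fos, Ier3 and Zfp36 peaks lay only 32, 49 and 105 bp from an interval of replicate 1. Those assigned to Fos and Egr3 held a footprint, and the 3 others did not. Of 16 circadian genes, Nfil3 (0.718) and Rora (0.525) had 1 each (12.5% of the genes), 52583 and 91646 bp upstream. The other distal peaks were nearest to 18 of the 24 immediate-early and 13 of the 16 circadian genes. Of all 21924 protein-coding genes they were nearest to 4830, so nearness to these lists was not particular to the set.

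Of the 15 tallest peaks, 14 are described here. After Morn1 (3.01, intron, 380 bp), Swsap1 (2.81), Camta1 (2.55) and Hspg2 (2.5) came a peak of 2.32 and 480 bp in an intron of Dnm3. It covers the RefSeq hairpin Mir199a-2 and the start of the antisense transcript Dnm3os, from which that microRNA is made, and holds 5 footprints. Then came those near Smg6, a nuclease of nonsense-mediated decay (2.12), Aldh3b1, an aldehyde dehydrogenase (2.07), and Vac14 (2.07). The last were near Lin28a, which blocks let-7 maturation (1.99), Rab3il1 (1.98), Sfi1 (1.97), Pde10a (1.95), Cops8 (1.95) and Dapk2 (1.93). Each of these 14 held at least 1 footprint.

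Repeated letters in the footprints of the Swsap1 and Camta1 peaks led to a search for the repressor element 1 (RE1), the long element bound by REST, a zinc finger repressor that keeps neuronal genes silent outside neurons. The letters searched were CAG, any base, ACC, any 2 bases and GGACAG, on either strand, with the whole match inside the peak; they were chosen after those sequences had been seen. Of the 1525 peaks 26 held a match (1.70%, Wilson interval 1.17% to 2.49%), against 28 of the 7964 other distal peaks (0.352%, 0.243% to 0.508%). Windows of the same width 1 kb to each side of the 1525 held it in 0 of 3050. Among promoter peaks of replicate 2 the share was 27 of 17315 (0.156%), and among distal peaks of replicate 1 it was 43 of 84881 (0.0507%). A match of letters is a description and does not show that REST was bound.

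For 10 of these matches the sequence is given with 7 bases on each side, on the strand that reads CAG to GGACAG; capitals mark the 15 bases of the match. They are shown because the flanking bases, outside the letters searched, can be compared by eye, and the genes were chosen after their values were seen.
Swsap1 (chr9:21950495-21950523, plus strand): acagtttCAGGACCGTGGACAGcacccag
Camta1 (chr4:151604683-151604711, minus strand): gaccgttCAGAACCAGGGACAGcgcccag
Lin28a (chr4:134020823-134020851, minus strand): gatgtttCAGCACCAGGGACAGagctacg
C1qa (chr4:136924718-136924746, plus strand): ctcgaccCAGCACCTTGGACAGcgcagct
Chrm4 (chr2:91921330-91921358, minus strand): gcaggttCAGCACCTCGGACAGccccaca
Chga (chr12:102550689-102550717, plus strand): agtgtttCAGGACCACGGACAGcgacacg
Rapgef1 (chr2:29573765-29573793, plus strand): aggggttCAGCACCACGGACAGcgccatg
Rbfox3 (chr11:118584993-118585021, minus strand): gccgtttCAGTACCATGGACAGcgggcaa
Scn10a (chr9:119706895-119706923, minus strand): tgaggttCAGCACCACGGACAGagcagag
Stmn2 (chr3:8508225-8508253, plus strand): gccatttCAGCACCACGGACAGcgcttct
The 26 peaks had 25 nearest genes, of which Rbfox3 and Stmn2 were on the neuron list; no other list of neuronal genes was counted. Chrm4 encodes a muscarinic receptor, Chga chromogranin A of secretory vesicles, Rbfox3 the neuronal splicing factor known as NeuN, Scn10a a sodium channel of sensory neurons and Stmn2 a growth-cone protein. Other nearest genes with a match included Kcnk9 (a potassium channel, height 1.35), Cacna1h (a calcium channel, 0.965), Phactr3 (0.943) and Nsf (a vesicle fusion ATPase, 0.772). Many are not known as neuronal genes, among them C1qa (1.85), Lin28a (1.99), Matn1 (cartilage matrilin, 1.48), Swsap1, Eid2, Vrk3, Stra6, Gja10, Tti1 and Cep170.

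The matches sat in the isolated and taller peaks. Of the 468 peaks linked to no other, 23 held one (4.91%), against 2 of 368 in groups of 2 to 4 and 1 of 689 in groups of at least 5. By height, 15 of the 220 peaks of at least 1 held a match (6.82%, 4.18% to 10.9%), 10 of 332 between 0.6 and 1 (3.01%), and 1 of 973 below 0.6 (0.103%). For the other distal peaks the shares were 24 of 5957 (0.403%), 4 of 1683 (0.238%) and 0 of 324. The set's share was therefore the higher one within the upper and the middle band. Without the Swsap1 and Camta1 peaks whose sequences led to the search, 24 of 1523 peaks (1.58%, 1.06% to 2.33%) held a match, and 13 of 218 of at least 1 (5.96%, 3.52% to 9.93%).

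Footprints lay on most of the matches. The 26 peaks held 33 matches, since some had more than 1, and 28 of the 33 (84.8%, 69.1% to 93.3%) shared a base with a footprint of replicate 2, of which 12 lay wholly inside. The footprints there had a median width of 18.5 bp (range 7 to 52). In the other distal peaks, 31 of 34 matches shared a base with a footprint (91.2%, 77.0% to 97.0%). There 19 matches lay wholly inside, and the median width was 25 bp, so footprints on these letters were not particular to the set. Counted by the centre of the match, with footprints widened by 5 bp on each side, 28 matches lay inside and 6 outside, which also counts a match that crosses a peak edge. This came to 1.15 matches per kb inside and 0.0240 per kb outside. The corresponding rates of the other distal peaks were 0.0749 and 0.00368. The rates are per footprint base, and widened footprints covered 24290 bases in the set against 400771 in the other distal peaks. Not every match had one: the Stmn2 footprint lay beside its match and not on it. Of the neuron markers checked, Rbfox3 had a promoter peak in both libraries and Neurod2 in replicate 1 alone; the part of nerve cells in these values was not tested.

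**Figure D4:**
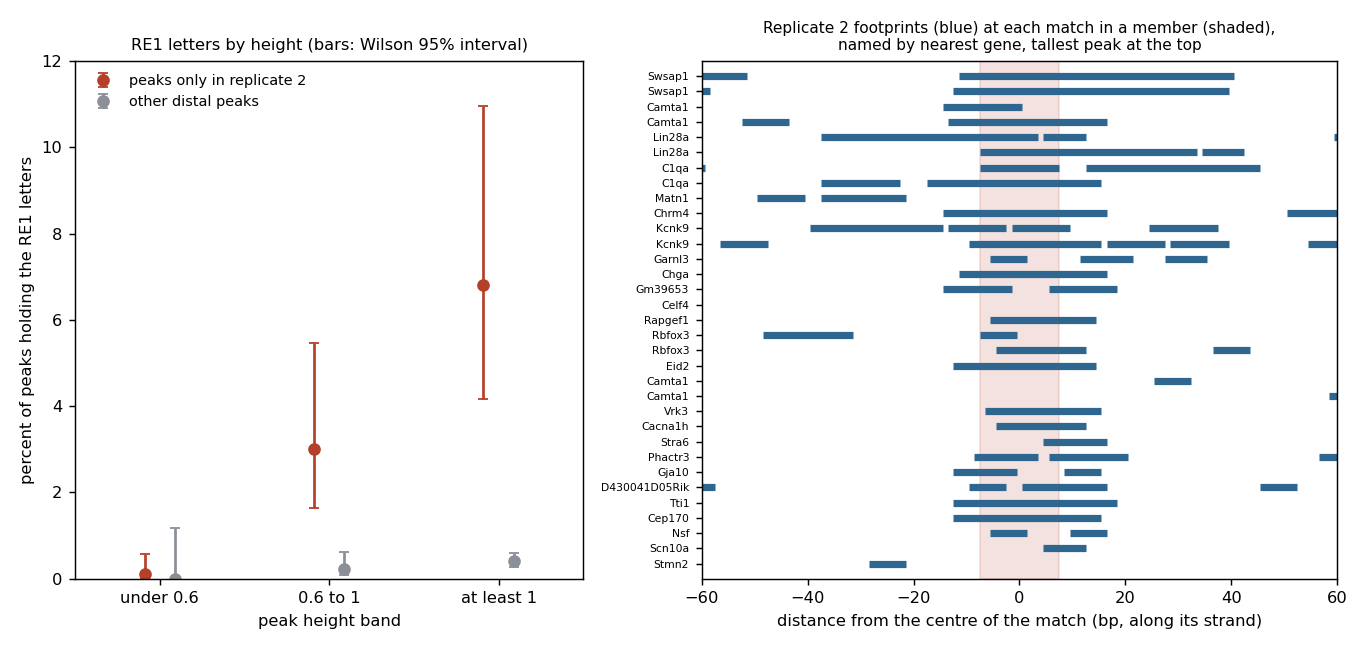
Left, percent of peaks with the RE1 letters by height band, for peaks called only in replicate 2 and for the other distal peaks; bars are Wilson 95% intervals. Right, footprints of replicate 2 (lines) around each of the 33 matches in the 26 peaks, by distance from the match centre in bp; 28 of the matches share a base with a footprint.

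The same letters were also counted over the genome. The reference held 1143 matches over 1 kb from a protein-coding TSS. Peaks of replicate 2 covered 70 (6.12%, Wilson interval 4.88% to 7.67%) and those of replicate 1 covered 52 (4.55%, 3.49% to 5.92%). These intervals overlap, although replicate 1 had more distal peaks (84881 against 9489). By FDR intervals the libraries were close: those of replicate 2 covered 126 matches (11.0%, 9.34% to 13.0%) and those of replicate 1 covered 110 (9.62%, 8.05% to 11.5%). Footprints covered 90 in replicate 2 and 47 in replicate 1. In peaks of replicate 2 without a replicate 1 interval there were 35 matches, and in peaks of replicate 1 without a replicate 2 interval there were 24. The core letters of the insulator protein CTCF (CC, any base, C, any 2 bases, G, any base, GGC) gave the opposite order: of 141855 distal matches, peaks of replicate 1 covered 5731 (4.04%) and peaks of replicate 2 covered 1313 (0.926%).

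The CTCF core was itself rare in the set. In the central 150 bp, 2.75% of the 1525 peaks held it, against 10.8% of the other distal peaks, while windows 1 kb away held it at 1.70% and 1.66%. By height the shares of the set and the others were 1.21% and 1.79% under 0.3, 2.67% and 4.85% from 0.3 to 0.6, 3.92% and 7.19% from 0.6 to 1, and 4.62% and 9.87% from 1 to 1.5. From 1.5 upward they were 2.13%, which is 1 of 47 peaks (0.377% to 11.1%), and 14.0%. In the 4 bands below 1.5 the Wilson intervals of the shares overlapped. Inside footprints of the set, widened by 5 bp, it occurred 0.248 times per kb and outside 0.227 times, against 1.81 and 0.390 in the other distal peaks. The GC box GGGCGGGG was also rarer, at 0.656% against 2.99%.

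Letters of muscle and stimulus-responsive factors differed less. The E-box CAGCTG, bound by MYOD and other helix-loop-helix proteins, was in 13.1% of the set and 15.2% of the other distal peaks, with 9.93% and 7.52% in the windows beside them. The E-box CAGATG was in 13.6% and 13.4%. The AP-1 letters TGANTCA were in 4.66% and 4.02%, the TEAD letters GGAATG in 9.05% and 8.26%, and the RUNX letters TGTGGTT in 3.41% and 2.56%. The MEF2 site was in 0.525% of the set, below the 1.25% of its flanking windows, and in 0.565% of the others. Both strands were searched for all of these, and a match may overlap one of another motif.

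Sequence composition was less rich in CpG than at the other distal peaks. The median GC content of the central 150 bp was 54.0% (quartiles 51.3% and 56.7%), against 56.0%, with 50% and 47.7% in the flanking windows. At like height the GC medians were close. From the lowest height band to the highest they were 52.3%, 54.0%, 54.7%, 56.0% and 56.7% in the set. In the others they were 53.0%, 54.7%, 54.7%, 55.3% and 56.7%. The mean number of CpG dinucleotides was 2.83 in the set and 5.20 in the others, against 2.17 and 2.35 in the flanking windows. Within each height band the set's mean was the lower one, by less than in the total. The means rose from 2.15 and 2.88 under 0.3 to 4.87 and 5.97 from 1.5 upward. At least 10 CpGs were found in 2.03% and 14.0%. More than 50% of the window was repeat-masked in 7.41% of the set and 2.30% of the others.

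Footprints were found in 718 of the 1525 peaks (47.1%, 44.6% to 49.6%), against 88.0% (87.3% to 88.7%) of the other distal peaks and 81.4% of all distal peaks of replicate 2. The 1322 footprints came to 4.68 per kb of peak, against 11.9. In both sets the share with a footprint differed with height. Under 0.3 the shares were 20.6% in the set and 21.4% in the others; from 0.3 to 0.6 they were 39.8% and 47.4%, and from 0.6 to 1 they were 69.3% and 72.8%. From 1 to 1.5 they were 78.0% and 90.1%, and from 1.5 upward 95.7% and 98.4%. Within each band the set's share was the lower one, by less than in the total. No footprint of replicate 1 lay on any of the 1525 peaks, which the choice by replicate 1's intervals largely fixes, and 88.5% of the other distal peaks had one.

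**Figure D5:**
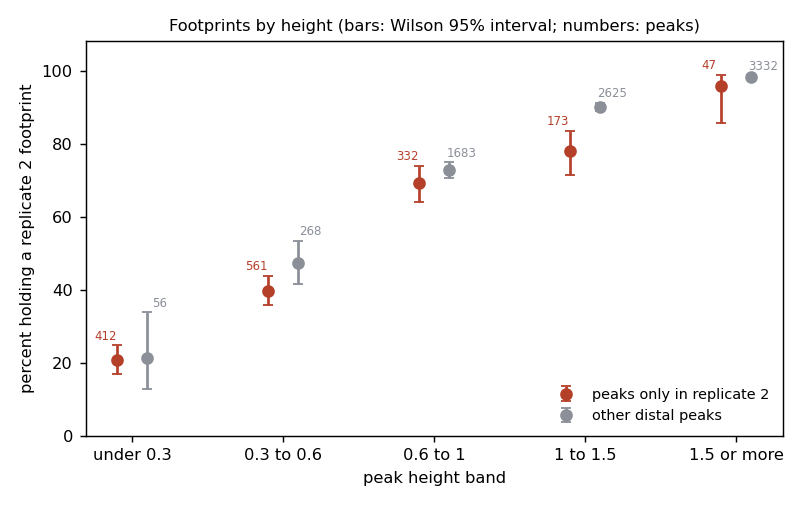
Percent of peaks holding a footprint of replicate 2, by height band, for peaks called only in replicate 2 and for the other distal peaks; bars are Wilson 95% intervals. Both sets climb from about 21% in the lowest band (20.6% and 21.4%) to 95.7% and 98.4% in the highest.

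As a whole the peaks lay nearer to genes, and more often in them, than the other distal peaks, but the isolated ones did not lie nearer. The median distance to a protein-coding TSS was 9394 bp against 15985 bp, and 33.2% against 24.5% lay within 1 to 5 kb. For the 468 peaks linked to no other the median was 20170 bp, and 24.1% lay within 1 to 5 kb; in groups of at least 5 it was 8162 bp and 33.8%. Introns held 680 (44.6%, against 32.0%), intergenic sequence 672 (44.1%, against 60.4%, and 55.6% of the isolated ones), coding exons 109 (7.15%, against 4.08%) and untranslated exon parts 47 (3.08%, against 2.83%). A TSS of another gene type, such as a long noncoding RNA, stood within 1 kb of 107 peaks (7.02%, against 11.2%). Of the distal peaks on chromosome 2, 173 of 795 (21.8%) belonged to the set, and on chromosome X 13 of 167 (7.78%).

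Few of the peaks fell on elements that RefSeq annotates. The 1019 enhancers that RefSeq annotates held 8 (0.525%, against 0.892% of the other distal peaks), in 7 elements. All 7 belong to the VISTA collection of enhancers tested in transgenic mouse embryos. Of these 7, 5 had activity in limb and 2 in heart, against 14 with limb activity of 56 at the other distal peaks and 193 of 962 annotated with a function. The limb elements lay near Efcab1 (peak height 0.976), Mrpl23 (2 peaks, 0.557 and 0.579, in an element also active in somites), Tacc1 (0.976), Sorl1 (1.24) and Nedd4 (0.965). A tRNA gene lay under 1 peak, that of Vac14 shown above (0.0656%), against 103 of the other distal peaks (1.29%). MicroRNA hairpins lay under 6 peaks (0.393%, Wilson interval 0.180% to 0.856%), against 8 of the others (0.100%, 0.0509% to 0.198%). Besides Mir199a-2 these were Mir135b near Lemd1 (0.257), Mir26a-1 near Ctdspl (1.08), and 3 peaks with Mir299a, Mir329 and Mir679 in the imprinted cluster near Rtl1 (0.257, 0.343 and 0.418). The 12 peaks of the run at Rtl1, a retrotransposon-derived gene of that imprinted locus, were low throughout (0.161 to 0.418).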

How the data were processed

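DNase-seq of 2 gastrocnemius libraries was used as deposited. Per the README files deposited with them, the authors called peaks, intervals and footprints from the filtered mm10 alignments of each library alone; which aligner and callers they used is not given in the sources used here. Deposited peak values are a signal. The README files list a read-depth normalized signal track from the same alignments, but do not say that peak heights were normalized so, and heights are compared here only within replicate 2, except where said. The interval values deposited are an FDR, a corrected p-value, of at most 0.05. The footprint score deposited is 0.01 in every row, so footprints were not ranked. Of columns of per-sample values, 0 were left unmapped and unused.

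The shorter peak list of replicate 2 was used. Distances were taken to GENCODE M21 protein-coding TSSs, sequence from GRCm38, which is mm10, and tRNA, microRNA and enhancer annotation from RefSeq. GC and the 24 motifs were read in the central 150 bp, and in flanking windows 1 kb to each side. Genes named were the 20 nearest to the most peaks, up to 4 per list of 30 gene lists (475 entries, of which H19 was not found among protein-coding genes), and those of the 15 tallest peaks; others are said to have been chosen after their values were seen. Members and lists were chosen with earlier results of these data known, and the 10 kb links, height bands, RE1 letters, RefSeq overlaps, and the genes at them, at the limits and with an RE1 match, with Hoxa7, Tpm2, Mybpc2 and Klf4, after seeing the data. Coordinates are 1-based. Shares have Wilson 95% intervals and medians binomial order-statistic intervals. Overlaps were made with bedtools 2.31.1, sequence was read with samtools 1.23.1, and statistics and plots used scipy 1.17.1, pandas 2.3.3, numpy 2.4.6 and matplotlib 3.10.9 under Python 3.11.15; scripts were tested on simulated data. One item covered by these rules is not reported here. Alternatives covered the peak lists, FDR limit, overlap, distance, padding, sequence window and each library left out.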

Additional observations from a re-analysis of the deposited data

How the results depend on the processing

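The number of peaks in the set was 1525 and became 2343 with the shorter peak list of replicate 1 as reference, 5802 with the longer list of replicate 2, 9489 without replicate 1, and 836 with groups of at least 5 left out (a setting chosen after seeing the data). The median height of 0.418 became 0.654, 0.493, 1.23 and 0.675 under these 4 settings in that order, 0.557 with the longer replicate 1 list as reference, 0.525 and 0.461 with FDR limits of 0.001 and 0.01, and 0.375 when intervals were padded by 500 bp. The share with a footprint, 47.1%, became 52.2%, 42.6%, 81.4% and 53.9% in the same order, 51.2% with an FDR limit of 0.001 and 44.1% where the footprint had to lie wholly inside. The median GC content of 54.0% became 54.7% with either replicate 1 peak list as reference, 55.3% without replicate 1, 54.7% without groups of at least 5, 54.1% over the whole peak and 53.3% for peaks over 5 kb from a TSS. The share with the RE1 letters, 1.70%, was 0.879% with the longer list of replicate 2, 0.569% without replicate 1, 2.99% without groups of at least 5, 1.58% without the 2 peaks that led to the search, 2.23% with 2 fewer fixed letters and 0.328% with 5 more. The 657 nearest genes became 1253 with every gene within 50 kb. Without replicate 2 no peak of the set exists. No paired analysis was possible because both libraries form a single group. With 1 library on each side of the choice and the read depth unknown, library, depth and biology cannot be told apart.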

Other observations

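The 420 promoter peaks of replicate 2 that overlapped no interval of replicate 1 had a median height of 0.740 and 50.5% held a footprint.

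Both libraries are labelled female, and the Y chromosome held 8 distal peaks of replicate 2, of which 2 belonged to the set, at heights of 0.139 and 0.150.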
